A study of Mus musculus and Rattus norvegicus with 12 samples.

Results

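The 46 genes described here encode the machinery of autophagy and mitophagy and the cathepsins of the lysosome. They were taken from the 2 count tables by symbol, with letter case ignored and no measured value used. All 46 were found among the 54087 symbols of the mouse heart table. Of the same names, 44 were found among the 28909 symbols of the rat cell table, where no row matched Atg4a or Rab7. Every gene found passed the filter on low counts.

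Autophagy begins when the ULK1 kinase complex starts a membrane that the Beclin 1 complex enlarges, while ATG enzymes attach small ATG8 proteins (LC3 and GABARAP) to it. Receptors such as p62 hold cargo to those ATG8 proteins, mitophagy receptors do so for mitochondria, and fusion with lysosomes delivers the cargo to cathepsins, which are mostly proteases. TFEB, TFE3 and MITF switch on many of these genes, and in the heart the pathway keeps the pool of mitochondria and proteins of long-lived muscle cells in repair. Some cathepsins are also made in quantity by other cells, cathepsin S by macrophages and cathepsin K by osteoclasts and activated fibroblasts.

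Heart tissue and cultured cells were measured by RNA sequencing in 12 libraries, 3 in each of 4 groups. The cKO mice (MCM+ Jmjd4f/f, myh6 cre) carry floxed alleles of Jmjd4 and the MCM transgene, in which a heart muscle promoter drives the Cre recombinase. The flox hearts (Jmjd4f/f) had no Cre, and both groups were given tamoxifen and sampled at the apex 14 days later, so that effects of Cre and of the deletion cannot be told apart. The siJmjd4 and siNC groups were neonatal rat ventricular cardiomyocytes (NRVCs) from 1-day-old Sprague-Dawley rats, treated for 48 h with siRNA against Jmjd4 (si-Jmjd4) or with the control siRNA (si-NC). Age and sex of the mice are not given in the labels, and only cells with an active myh6 promoter should lose the gene. The labels name cardiomyocytes as the cell type of all 12 libraries. Tissue of the apex holds other cells, and none of the 17 macrophage or 12 fibroblast markers was at 0 in all heart libraries. In such bulk samples, fewer cells of a type and less RNA per cell cannot be told apart. The labels do not state whether NRVC replicates came from separate isolations, so p-values there measure only the spread between these samples.

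The libraries held 57174654 to 82187009 counts. Flox replicate 3 and siNC replicate 3 stood apart, with 1485 and 461 tested genes at 0 against 125 to 503 in the other heart libraries and 78 to 137 in the other NRVC libraries. Mitochondrially encoded genes took 41.7% of counts in flox replicate 3 and 14.2% to 24.1% in the other heart libraries. Levels are given in CPM, counts scaled to library size by TMM. Jmjd4 was at 8.95, 4.92 and 9.63 CPM in cKO replicates 1, 2 and 3 and at 19.0, 8.04 and 16.9 CPM in flox replicates 1, 2 and 3 (log2 fold change -0.90, edgeR adjusted p = 0.397), with overlap between the groups. In the NRVCs it was at 3.58, 3.43 and 3.53 CPM under the label siJmjd4 and at 3.46, 4.40 and 0.982 CPM under siNC (log2 fold change 0.25, edgeR adjusted p = 0.770). No lowering of Jmjd4 could thus be detected where the label is siJmjd4, and each direction given for the rat cells rests on that label.

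Of 9 role groups, the cathepsins had the highest median log2 fold change in the hearts (0.55, and 0.82 without flox replicate 3), and the core autophagy genes showed no common direction. Cathepsin S was 5.38-fold, cathepsin K 3.64-fold and cathepsin Z 2.24-fold higher in cKO than in flox hearts, and the transcription factor gene Mitf was 2.11-fold lower. None of the 46 genes passed the test with all 6 libraries (edgeR's quasi-likelihood test, two-sided, Benjamini-Hochberg adjusted p under 0.05 over 18094 genes), in which 0.508% of all genes were called. Without flox replicate 3, Ctss, Ctsk, Ctsz and Ctsl were called higher and Mitf lower, that is 4 and 1 of 46, where 4.26% of 19094 genes were called higher and 2.93% lower. On all 6 libraries, DESeq2's Wald test called Ctsk and Ctss higher and Atg4d and Mitf lower, that is 2 and 2, where it called 5.29% of genes higher and 4.37% lower. Limma voom with sample quality weights called 7 higher (Ctss, Ctsk, Ctsz, Ctsl, Ctsa, Ctsb and Sqstm1) and 4 lower (Mitf, Atg4d, Atg10 and Pink1), where it called 12% and 9.34% of genes. A correction for each library's own trend against transcript length gave 3 higher (Ctss, Ctsk and Ctsz) and 0 lower, where 3.08% and 2.87% of genes were called, and taking the length of all exons joined gave the same 3 and Mitf lower, that is 3 and 1, where 1.85% and 1.51% were. With no filter Ctss was the 1 gene called higher, where 0.37% of genes were. Without flox replicate 3, the length correction gave 4 higher (Ctss, Ctsk, Ctsz and Ctsl) and 2 lower, Mitf among them, where 6.94% and 6.65% of genes were called. Leaving out both flox replicate 3 and cKO replicate 2, with no such correction, gave 7 and 5, where 9.54% and 9.53% were.

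At an unadjusted p under 0.05, 3 of the 46 genes were higher and 3 lower in cKO hearts, against 8.22% and 6.79% of all tested genes. The CPM of the groups did not overlap in 9 genes that were higher (19.6% of 46, against 14.9% of all tested genes) and 6 that were lower (13.0%, against 11.2%). The median log2 fold change of the 46 genes was -0.06, and 0.00 over all tested genes. It was 0.13 without flox replicate 3, when the median over all genes was 0.02. Scaled to total counts alone, the 46 genes had a median of 0.53 and all genes one of 0.54, so directions are given relative to the other genes of the table.

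**Figure D1:**
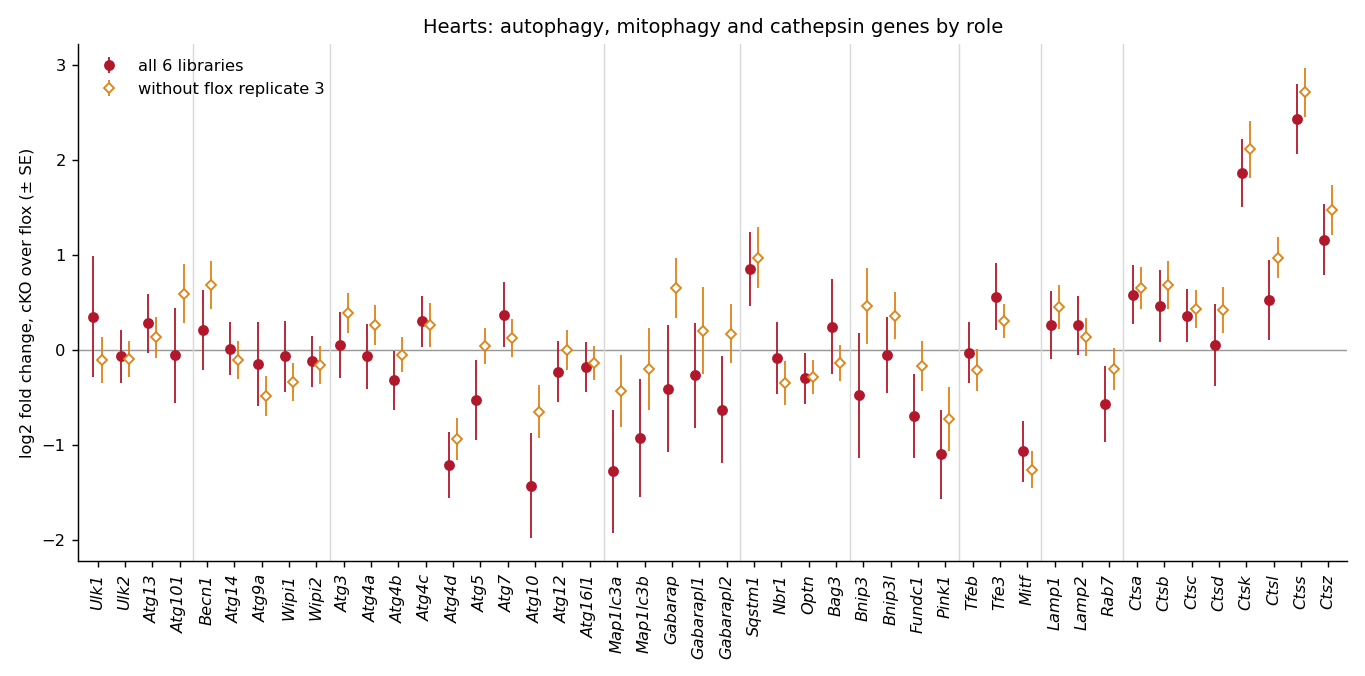
Log2 fold change of each of the 46 genes, cKO over flox hearts, with its standard error, with all 6 libraries (filled circles) and without flox replicate 3 (open diamonds). Genes run by role from left to right, with lines between the roles. Ctss at 2.43 and Ctsk at 1.86 lie above all others, and Atg10 at -1.43 lies lowest with all libraries.

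The cathepsins hold the clearest difference. All 8 had a log2 fold change above 0 in cKO hearts, from 0.05 for Ctsd to 2.43 for Ctss, and from 0.42 to 2.71 without flox replicate 3. With the length correction Ctsb and Ctsl turned to -0.20 and -0.10. The groups did not overlap in 5 of the 8, where 14.9% of all tested genes were higher with no overlap, and 4 were called without flox replicate 3, where 4.26% of genes were called higher. Per kilobase of transcript, the mean level in cKO hearts ran from 522 CPM per kb for Ctsd, the main aspartic protease of the lysosome, through 158 for Ctsb and 79.0 for Ctss to 12.7 for Ctsk. In flox hearts the mean level was 505 CPM per kb for Ctsd, 115 for Ctsb, 14.7 for Ctss and 3.51 for Ctsk. By this measure Ctss was the third of the 8 in cKO hearts and the seventh in flox hearts.

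Ctss encodes cathepsin S, a cysteine protease that trims the invariant chain in antigen-presenting cells and also cuts elastin. It was at 98.5, 89.3 and 133 CPM in cKO replicates 1, 2 and 3, against 16.6, 16.2 and 27.0 CPM in flox replicates 1, 2 and 3. Every cKO library lay above every flox library, the lowest cKO value well above the highest flox value. The log2 fold change was 2.43 (SE 0.37, edgeR adjusted p = 0.0508), which did not pass the threshold. It was 2.71 (SE 0.26, edgeR adjusted p = 0.00527) without flox replicate 3 and 2.64 (adjusted p = 0.00775) with the length correction.

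Ctsk encodes cathepsin K, a cysteine protease that cleaves fibrillar collagen and is best known from osteoclasts. It was at 13.0, 21.6 and 23.2 CPM in cKO replicates 1, 2 and 3, against 4.30, 4.64 and 6.97 CPM in flox replicates 1, 2 and 3. The groups did not overlap, and the log2 fold change was 1.86 (SE 0.36, edgeR adjusted p = 0.0837). It was 2.11 (SE 0.30, adjusted p = 0.0135) without flox replicate 3 and 1.96 (adjusted p = 0.0115) with the length correction.

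Ctsk and Ctss are neighbours on mouse chromosome 3. In GENCODE's annotation of GRCm38, Ctsk lies at chr3:95499256-95509362 and Ctss at chr3:95526786-95556403, both on the plus strand. The 17423 bases between them hold no annotated gene, and no exon of another gene overlaps either. Since the 2 genes lie side by side and were higher together, the 250 bases before each start given by RefSeq are shown, which for Ctsk lies upstream of the GENCODE start above, on GRCm38.p6, plus strand, at chr3:95526536-95526785 and chr3:95498960-95499209. Capitals mark 2 copies of GAAA with 2 bases between them, a core of the sites bound by interferon regulatory factors, searched on both strands and chosen after the letters had been read.
Ctss: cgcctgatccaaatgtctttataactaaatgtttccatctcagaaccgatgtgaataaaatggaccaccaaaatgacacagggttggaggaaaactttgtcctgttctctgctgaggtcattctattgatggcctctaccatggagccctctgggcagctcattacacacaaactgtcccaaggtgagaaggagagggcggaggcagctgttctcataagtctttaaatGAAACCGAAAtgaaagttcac
Ctsk: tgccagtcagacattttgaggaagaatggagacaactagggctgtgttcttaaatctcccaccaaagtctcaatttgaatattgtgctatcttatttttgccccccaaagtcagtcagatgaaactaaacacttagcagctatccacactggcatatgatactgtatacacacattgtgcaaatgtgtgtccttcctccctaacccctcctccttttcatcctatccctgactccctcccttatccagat
The motif was found in the Ctss window and in that of Lamp1, that is in 2 of the 40 genes with an entry (5%), and in 3.46% of 27025 genes in all. It was not found in these letters of Ctsk.

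Ctsz encodes cathepsin Z, a carboxypeptidase of macrophages and other cells. It was at 53.8, 78.5 and 87.4 CPM in cKO replicates 1, 2 and 3, against 25.5, 27.2 and 45.4 CPM in flox replicates 1, 2 and 3. The lowest cKO library lay above the highest flox library, and the log2 fold change was 1.16 (SE 0.37, edgeR adjusted p = 0.210). It was 1.47 (adjusted p = 0.0226) without flox replicate 3 and 1.32 (adjusted p = 0.0240) with the length correction. Ctsz lies at chr2:174427493-174439039 on the minus strand, and exons of Nelfcd on the other strand overlap it, whose reads may not be separable where counting ignored strand.

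Ctsl, which encodes the broad cysteine protease cathepsin L, changed its call and its direction with the setting. It was at 194, 236 and 195 CPM in cKO replicates 1, 2 and 3, against 115, 97.6 and 224 CPM in flox replicates 1, 2 and 3. Flox replicate 3 lay above 2 of the 3 cKO libraries, and exons of Gm47123 on the other strand and of Gm49230 on the same strand overlap the gene. The log2 fold change was 0.52 (SE 0.42, edgeR adjusted p = 0.637) with all libraries, 0.97 (adjusted p = 0.0476) without flox replicate 3 and -0.10 (adjusted p = 0.950) with the length correction.

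The other 4 cathepsins were not called by edgeR with or without flox replicate 3, while limma voom with all libraries called Ctsa and Ctsb higher (adjusted p = 0.0328 and 0.0405). Ctsa, the protective protein that keeps lysosomal sialidase and galactosidase stable, averaged 157 ± 23.1 CPM in cKO and 105 ± 8.09 CPM in flox hearts (SD, n = 3 each; log2 fold change 0.58, edgeR adjusted p = 0.438), with no overlap. Ctsc, the peptidase that activates serine proteases of immune cells, averaged 62.3 ± 8.23 CPM in cKO and 48.4 ± 4.30 CPM in flox hearts (0.36, adjusted p = 0.623), also with no overlap. Ctsb, a cysteine protease of most cells, averaged 747 ± 139 CPM in cKO and 544 ± 133 CPM in flox hearts (0.46, adjusted p = 0.651). These last groups overlapped, and so did those of Ctsd, at 1056 ± 175 CPM in cKO and 1022 ± 404 CPM in flox hearts.

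**Figure D2:**
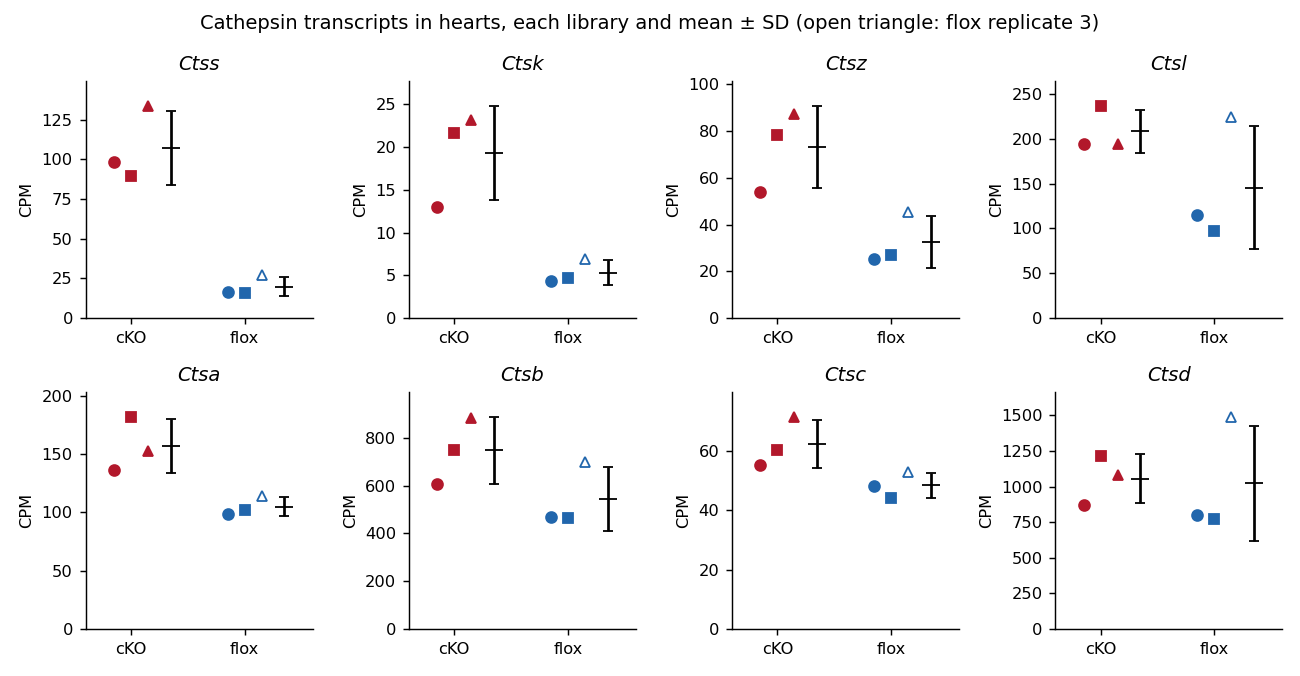
CPM of the 8 cathepsin genes in each heart library (circle, square and triangle for replicates 1, 2 and 3; flox replicate 3 open), cKO left of flox, with the mean and SD of 3 libraries in black. Every cKO library lies above every flox library for Ctss, Ctsk, Ctsz, Ctsa and Ctsc, while flox replicate 3 reaches into or above the cKO values for Ctsl, Ctsb and Ctsd.

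The summed markers of macrophages, of fibroblasts, and of lymphocytes and neutrophils were each higher in every cKO library than in any flox library, beside the cathepsins. Over all tested heart genes, edgeR called 0.508% with all libraries. Without flox replicate 3 it called 4.26% higher and 2.93% lower, the background for the markers called below. Of 17 macrophage and monocyte markers, 16 had a log2 fold change above 0. Ccr2, the receptor of recruited monocytes, was called higher with all libraries, as were 12 of 17 markers without flox replicate 3. Their summed level was 1069 to 1474 CPM in cKO and 512 to 1043 CPM in flox hearts. The summed level of 12 fibroblast markers was 3074 to 8477 CPM in cKO and 967 to 1399 CPM in flox hearts, with 3 called without flox replicate 3, among them Postn. The 12 markers of lymphocytes and neutrophils summed to 16.6 to 18.6 CPM in cKO and 7.40 to 8.50 CPM in flox hearts, with 2 called higher without flox replicate 3, Cd4 and Cd8a. Endothelial markers summed to 1353 to 1596 CPM in cKO and 1601 to 1798 CPM in flox hearts, and smooth muscle and pericyte markers to 884 to 934 CPM in cKO and 953 to 1300 CPM in flox hearts, where Cnn1 was called higher with all libraries. The summed level of 12 cardiomyocyte markers was 44790 to 47480 CPM in cKO and 69720 to 102400 CPM in flox hearts. Not all of them went down. Without flox replicate 3, 3 were called lower (Pln, Mb and Atp2a2) and 1 higher, Myh7. With all libraries Myh7 averaged 5387 ± 2677 CPM in cKO and 349 ± 235 CPM in flox hearts (SD, n = 3 each).

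Set against the summed macrophage markers of the same library, Ctss was higher in cKO hearts. The sum rests most on abundant markers, and single markers differed. Without flox replicate 3, Lyz2 was 2.81-fold, C1qa 3.05-fold, Ccr2 4.60-fold and Lgals3 16.1-fold higher, beside 6.54-fold for Ctss. On the summed measure, Ctss ran as follows. It had 9.22, 6.63 and 9.04 counts per 100 counts of these markers in cKO replicates 1, 2 and 3, and 3.16, 3.16 and 2.59 in flox replicates 1, 2 and 3. Ctsk had 1.22, 1.61 and 1.57 counts per 100 in cKO replicates and 0.819, 0.907 and 0.669 in flox replicates, so both genes were higher on this measure in every cKO library than in any flox library. Ctsz overlapped on this measure, with 5.04 to 5.92 in cKO and 4.35 to 5.31 in flox hearts. Ctsb, Ctsd and Ctsl were lower per macrophage marker count in every cKO library than in any flox library.

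Set against the fibroblast markers, Ctsk overlapped, at 0.326, 0.704 and 0.273 counts per 100 marker counts in cKO replicates 1, 2 and 3 and 0.328, 0.332 and 0.722 in flox replicates 1, 2 and 3. Ctss overlapped there as well, with 1.57 to 2.91 in cKO and 1.16 to 2.79 in flox hearts. These ratios carry no test, and the part of such cells in the cathepsin levels was not tested.

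**Figure D3:**
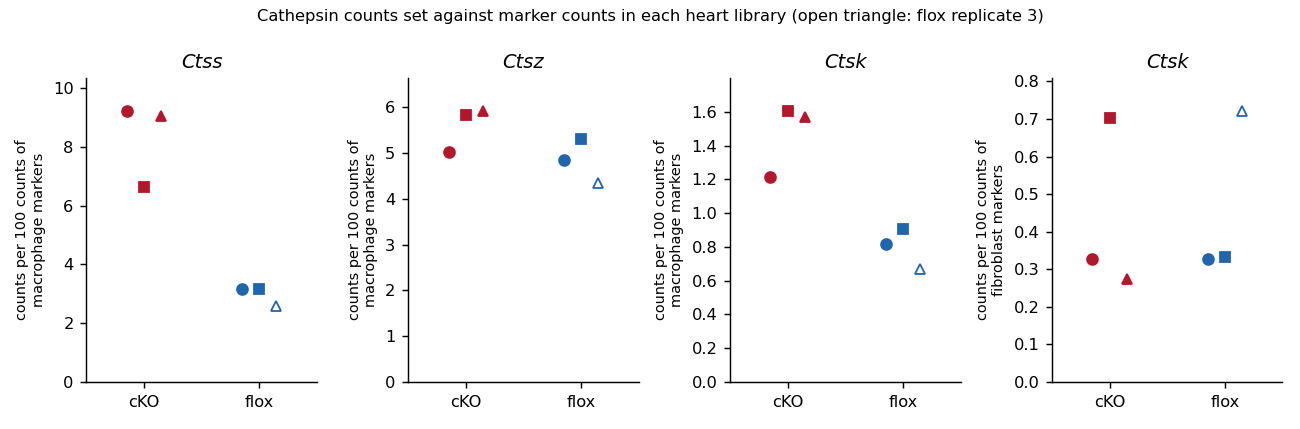
Counts of Ctss, Ctsz and Ctsk per 100 counts of macrophage markers, and of Ctsk per 100 counts of fibroblast markers, in each heart library (markers as in the plot of cathepsin CPM), cKO left of flox. Ctss lies at 6.63 to 9.22 in cKO and 2.59 to 3.16 in flox hearts, while Ctsk against fibroblast markers overlaps between the groups.

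None of the 3 genes for membrane and fusion proteins of the lysosome was called by edgeR with or without flox replicate 3. Lamp1, the most abundant lysosomal membrane glycoprotein, averaged 525 ± 68.3 CPM in cKO and 437 ± 90.9 CPM in flox hearts (SD, n = 3 each), and Lamp2, whose LAMP-2A form serves chaperone-mediated autophagy, was at 168 to 187 CPM in cKO and 122 to 165 CPM in flox hearts. Both had a log2 fold change of 0.26 (edgeR adjusted p = 0.803 for Lamp1 and 0.776 for Lamp2). The Lamp2 groups did not overlap and those of Lamp1 did. Rab7, the GTPase that guides late endosomes to lysosomes, was at 209, 251 and 192 CPM in cKO replicates 1, 2 and 3 and at 265, 235 and 466 CPM in flox replicates 1, 2 and 3 (log2 fold change -0.57 with all libraries, at an adjusted p of 0.573, and -0.20 with flox replicate 3 left out).

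Of the 3 transcription factor genes, Mitf alone was called by edgeR without flox replicate 3. MITF is a bHLH-zipper factor related to TFEB, known from pigment cells and osteoclasts, and a form of it is made in heart muscle. Mitf was at 20.1, 16.9 and 20.6 CPM in cKO replicates 1, 2 and 3, against 48.7, 43.6 and 28.9 CPM in flox replicates 1, 2 and 3. All cKO libraries lay below all flox libraries, with flox replicate 3 the nearest. The log2 fold change was -1.07 (SE 0.32, edgeR adjusted p = 0.178), -1.26 (SE 0.19, adjusted p = 0.0148) without flox replicate 3 and -1.17 (adjusted p = 0.0586) with the length correction. Mitf lies at chr6:97807052-98021349, plus strand, with no exon shared with another gene.

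Tfeb and Tfe3 encode the factors that move to the nucleus when mTORC1 is inactive, a step that transcript counts do not show. Tfeb was at 15.4 to 21.3 CPM in cKO and 14.1 to 24.0 CPM in flox hearts (log2 fold change -0.03, edgeR adjusted p = 0.979), with overlap. Tfe3 was at 23.1 to 25.2 CPM in cKO and 10.0 to 20.8 CPM in flox hearts (0.56, adjusted p = 0.521), with no overlap. Per kilobase of transcript, the mean level in cKO hearts was 9.01 CPM per kb for Mitf, 8.06 for Tfeb and 7.73 for Tfe3. In flox hearts it was 19.0 CPM per kb for Mitf, 8.23 for Tfeb and 5.25 for Tfe3, so that Mitf stood apart from the other two there but not in cKO hearts.

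These factors bind the letters CACGTG, the core of the CLEAR element of lysosomal genes. CACGTG is a palindrome and so the same on both strands. It was found in the 250 bases before a RefSeq start in 8 of the 40 genes with an entry (20%). The share was 6.86% of 27025 genes and 9.59% of the 10822 tested heart genes with an entry. The 8 were Atg3, Atg5, Atg7, Bnip3, Lamp1, Ctsa, Ctsd and Ctsl. RefSeq and GENCODE starts can differ. The copies of Atg7, Ctsa and Ctsl, and 1 of the 2 of Ctsd, lie downstream of the GENCODE start, within the annotated gene. Ctsa was searched in 2 windows. The longer palindrome TCACGTGA, which contains it, was in 3 of 40 (7.5%: Atg3, Ctsa and Ctsd), against 0.907% of all and 1.59% of tested genes. TCATGTG, searched on both strands, was in 0 of 40, against 3.72% of all genes. Neither the windows of Ctss, Ctsk and Ctsz nor that of Mitf held CACGTG.

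The Lamp1 window held 4 copies, the most of the 8 genes, within the 90 bases at chr8:13159071-13159160 (GRCm38.p6, plus strand). For 3 cathepsin genes and Atg3, 1 copy each is shown with up to 10 bases on each side, of which those of Ctsa, Ctsd and Atg3 lie within TCACGTGA and that of Ctsl does not. They are at chr2:164833751-164833772 (plus strand) for Ctsa, chr7:142387910-142387935 (minus strand) for Ctsd, chr13:64370741-64370766 (minus strand) for Ctsl and chr16:45158748-45158773 (plus strand) for Atg3. Capitals mark CACGTG.
Lamp1: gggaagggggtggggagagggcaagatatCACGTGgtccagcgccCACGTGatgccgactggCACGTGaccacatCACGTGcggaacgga
Ctsa: agcaaactgtCACGTGatgcag
Ctsd: gcccgcgtctCACGTGacccgttgag
Ctsl: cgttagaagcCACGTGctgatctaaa
Atg3: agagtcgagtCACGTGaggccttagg
With all libraries, 6 of these 8 genes had a log2 fold change above 0 in the hearts, from -0.53 for Atg5 to 0.58 for Ctsa. Without flox replicate 3 all 8 were above 0, from 0.04 for Atg5 to 0.97 for Ctsl, as were 25 of the 46 genes. Of the 8, edgeR called Ctsl in that fit and limma voom called Ctsl and Ctsa with all libraries (adjusted p = 0.0328 for Ctsa), both higher in cKO hearts. With the length correction on all libraries the 8 had no common direction. Atg5, Bnip3 and Ctsl were at -0.66, -0.09 and -0.10, Atg3 and Ctsd at 0, and Atg7, Lamp1 and Ctsa at 0.25, 0.16 and 0.32.

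No gene that starts autophagy was called by edgeR with or without flox replicate 3. The 4 genes of the initiation complex had log2 fold changes of -0.07 to 0.35 (edgeR adjusted p of at least 0.757), with overlap in every one. Atg13, the adaptor of that complex, had the smallest p of them and was at 69.0, 70.7 and 52.4 CPM in cKO replicates 1, 2 and 3 and at 57.9, 59.5 and 41.3 CPM in flox replicates 1, 2 and 3 (0.28, SE 0.31). Ulk1, its kinase, was at 72.1 to 106 CPM in cKO and, in flox replicates 1, 2 and 3, at 93.6, 92.1 and 15.9 CPM. Its log2 fold change of 0.35 became -0.11 without flox replicate 3.

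For nucleation and membrane supply, 5 genes lay between -0.15 and 0.21, with all groups overlapping and none called by edgeR with all libraries. Becn1, the scaffold of the lipid kinase complex, was at 53.5, 78.8 and 53.0 CPM in cKO replicates 1, 2 and 3 and at 38.9, 38.4 and 83.3 CPM in flox replicates 1, 2 and 3 (log2 fold change 0.21, SE 0.42, edgeR adjusted p = 0.879). Leaving out flox replicate 3 gave 0.68 (adjusted p = 0.156), and leaving out cKO replicate 2 as well gave 0.45, which was called (adjusted p = 0.0408). Atg9a, the scramblase of the vesicles that seed the membrane, was at -0.15, and -0.49 without flox replicate 3, and Wipi2, which reads the lipid signal and recruits ATG16L1, at -0.12 and -0.16.

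Among the 10 conjugation and ATG4 genes, 7 had a log2 fold change below 0. EdgeR called none with all libraries or without flox replicate 3, DESeq2 called Atg4d (adjusted p = 0.0135) and limma voom Atg4d and Atg10 (adjusted p = 0.0039 and 0.0244), all lower in cKO hearts. Atg4d, one of 4 proteases that trim ATG8 proteins, had the smallest p. It was at 22.0, 33.4 and 28.2 CPM in cKO replicates 1, 2 and 3, against 53.1, 54.0 and 86.4 CPM in flox replicates 1, 2 and 3, with no overlap (log2 fold change -1.21, SE 0.35, edgeR adjusted p = 0.169). Without flox replicate 3 it was -0.94 (adjusted p = 0.0520). Atg4d overlaps exons of Kri1 on the other strand. Its relatives showed smaller values, with Atg4a at -0.07, Atg4b at -0.32 and Atg4c at 0.30.

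Atg10, the enzyme that joins ATG12 to ATG5, was at 5.97 to 11.0 CPM in cKO and 12.7 to 40.2 CPM in flox hearts (log2 fold change -1.43, SE 0.55, edgeR adjusted p = 0.291). Much of that gap came with flox replicate 3, without which it was -0.65. The enzymes Atg3 and Atg7 were at 0.05 and 0.37, and Atg5, Atg12 and Atg16l1, which form the complex that places ATG8 on lipid, at -0.53, -0.23 and -0.18.

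All 5 ATG8 genes had a log2 fold change below 0 in cKO hearts with all libraries, but 3 of the 5 were above 0 without flox replicate 3. Scaling to total counts alone also put 3 above 0. In that scaling the median of the 5 was 0.24, below the median of 0.54 over all genes. Map1lc3a, one of the LC3 genes, was at 214, 464 and 216 CPM in cKO replicates 1, 2 and 3 and at 400, 403 and 1375 CPM in flox replicates 1, 2 and 3. Its log2 fold change was -1.28 (SE 0.65, edgeR adjusted p = 0.417), and -0.43 (adjusted p = 0.570) without flox replicate 3. Gabarap was at 147, 272 and 151 CPM in cKO replicates and at 124, 119 and 517 CPM in flox replicates, so that its log2 fold change of -0.41 became 0.65. The groups overlapped in all 5, and the highest value in cKO hearts was that of replicate 2 in every one.

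The deviation of single libraries was related to transcript length, loosely for long transcripts. Across the 46 genes, the log2 ratio of a library to the others of its group had a Spearman rho with length of -0.62 in flox replicate 3 and -0.54 in cKO replicate 2, and of -0.65 and -0.55 across the 14480 tested genes with a length. Genes with short transcripts were high in flox replicate 3 against flox replicates 1 and 2, such as Gabarap (log2 ratio 2.09, 1050 bases), Bnip3 (1.91, 1237 bases) and Map1lc3a (1.78, 1112 bases). Longer transcripts were mixed there, with Ulk1 (-2.55, 4397 bases) and Atg9a (-1.43, 4041 bases) low but Ctsl (1.08, 4069 bases) and Atg4d (0.69, 5951 bases) high. In siNC replicate 3 the rho was -0.27 across 44 genes and -0.47 across the 13010 tested genes with a length. The log2 ratios of the 44 genes in flox replicate 3 and siNC replicate 3 had a Pearson r of 0.24 and a Spearman rho of 0.31. These are descriptions across genes, which share a library and are not independent.

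**Figure D4:**
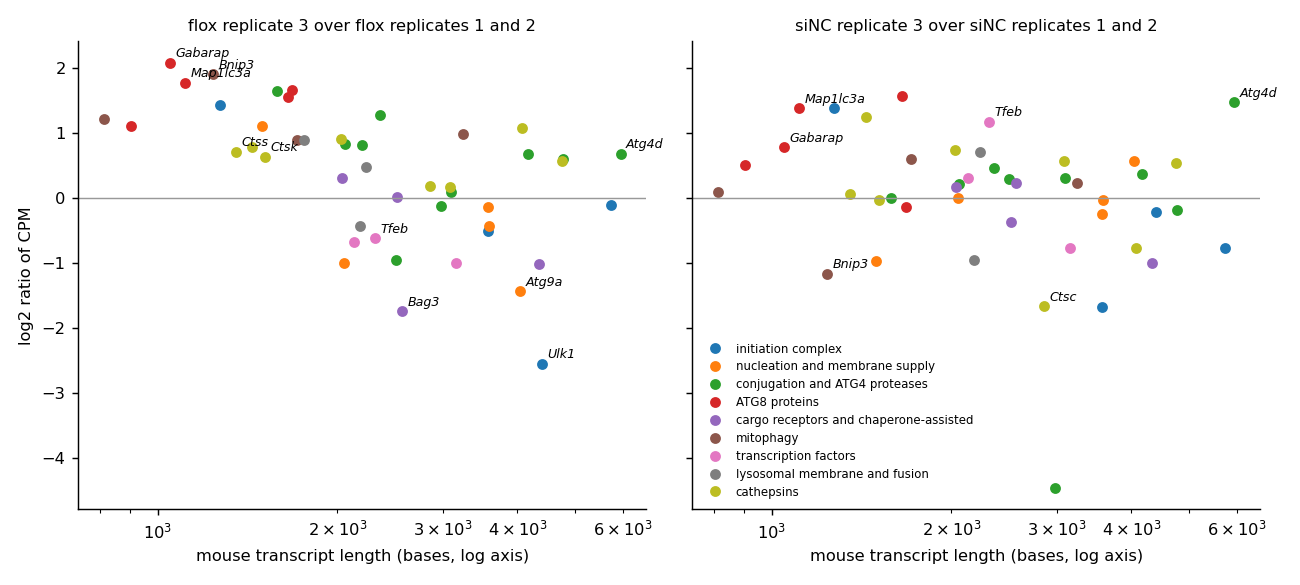
Log2 ratio of CPM in flox replicate 3 over the mean of flox replicates 1 and 2 (left) and in siNC replicate 3 over siNC replicates 1 and 2 (right), against mouse transcript length on a log axis, 1 point a gene, coloured by role. In flox replicate 3 the ratio runs from 2.09 for Gabarap to -2.55 for Ulk1.

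Of the cargo receptors, Sqstm1 had the largest difference. It encodes p62, the receptor that binds ubiquitinated cargo and is itself degraded with it. It was at 410, 609 and 321 CPM in cKO replicates 1, 2 and 3, against 223, 235 and 283 CPM in flox replicates 1, 2 and 3. The groups did not overlap, but the log2 fold change of 0.85 (SE 0.39) was not called by edgeR (adjusted p = 0.36, and 0.123 without flox replicate 3). Exons of Mrnip on the other strand overlap Sqstm1. Optn, a receptor for mitochondria and bacteria, was at 49.7 to 52.3 CPM in cKO and 60.1 to 63.8 CPM in flox hearts (-0.30, adjusted p = 0.679), again with no overlap. Nbr1, a p62 relative, was at -0.09, and Bag3, the co-chaperone that sends damaged sarcomere proteins to autophagy, at 0.24.

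All 4 mitophagy genes had a log2 fold change below 0, from -0.05 for Bnip3l to -1.10 for Pink1, but 2 of the 4 were above 0 without flox replicate 3. Scaling to total counts alone put 3 of the 4 above 0. In that scaling the median of the 4 was 0.26, below the median of 0.54 over all genes. Pink1 encodes the kinase that gathers on damaged mitochondria. It was at 275, 477 and 229 CPM in cKO replicates 1, 2 and 3, against 545, 544 and 1019 CPM in flox replicates 1, 2 and 3, with no overlap (SE 0.47, edgeR adjusted p = 0.339). The fold change was -0.73 (adjusted p = 0.258) without flox replicate 3. Bnip3 and Bnip3l, outer-membrane receptors that respond to hypoxia, were at -0.48 and -0.05, and the receptor gene Fundc1 at -0.70, all with overlap.

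Of 167 other genes of the pathway tested, from 6 lists, edgeR called 0 with all libraries. At an unadjusted p under 0.05, 20 were higher and 6 lower in cKO hearts (8.22% and 6.79% over all genes), and DESeq2's Wald test called 16 higher and 3 lower (5.29% and 4.37% over all genes). Without flox replicate 3 edgeR called 16 higher and 3 lower, where 4.26% and 2.93% of all genes were called, the background for each list in that fit. There 9 of 40 other lysosomal hydrolases and cofactors were called higher and 0 lower. Acp5, the tartrate-resistant phosphatase of macrophages and osteoclasts, averaged 3.48 ± 0.379 CPM in cKO and 0.498 ± 0.169 CPM in flox hearts (SD, n = 3 each; log2 fold change 2.81, edgeR adjusted p = 0.0510, and 0.0145 without flox replicate 3). Galns, Lgmn, Scpep1, Gm2a, Fuca1 and Hexa were also among them, with log2 fold changes of 1.03 to 1.39 in that fit. Lgmn, the asparaginyl endopeptidase that also processes cathepsins, was at 118, 142 and 144 CPM in cKO replicates 1, 2 and 3 and 57.5, 60.7 and 69.9 CPM in flox replicates 1, 2 and 3.

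Of the 36 lysosomal membrane and v-ATPase genes, 4 were called higher without flox replicate 3, namely Laptm5, Tcirg1, Cd68 and Npc2. Cd68 is also 1 of the 17 macrophage markers, and Laptm5 is best known from blood cells and Tcirg1 from osteoclasts. Of 5 tested cathepsin inhibitors, 3 were called higher in the same fit, Cst6 and Cstb of the cystatin group and the serpin Serpinb6a. With all libraries these 3 were not called, and Cstb had a log2 fold change of -0.19 there.

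Among 36 genes of mTORC1, AMPK and FoxO control, 3 were called lower without flox replicate 3. Sesn1, which restrains mTORC1, was at 54.7, 58.2 and 62.9 CPM in cKO replicates 1, 2 and 3, against 107, 114 and 144 CPM in flox replicates 1, 2 and 3 (log2 fold change -1.05, edgeR adjusted p = 0.167, and -0.92, adjusted p = 0.0338, in that fit). Prkab1, the beta1 subunit of AMPK, was at 15.2 to 17.9 CPM in cKO and 27.1 to 30.7 CPM in flox hearts (-0.82, adjusted p = 0.208, and 0.0489 in that fit). The third was Rragb, a Rag GTPase, at under 1 CPM in cKO hearts. Prkab2, for the other AMPK beta subunit, went the other way but was not called. It was at 77.7 to 120 CPM in cKO and 21.4 to 49.4 CPM in flox hearts. Its log2 fold change was 1.36 (edgeR adjusted p = 0.2), and 1.07 (adjusted p = 0.0505) in that fit. None of 30 other core autophagy genes and none of 20 other receptors and mitophagy genes was called in either fit. The smallest p among those receptors and mitophagy genes was that of Park2, the ubiquitin ligase parkin, at 2.95 to 3.57 CPM in cKO and 4.45 to 6.89 CPM in flox hearts (log2 fold change -0.83, edgeR adjusted p = 0.279).

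In the NRVCs none of the 44 genes was called by edgeR with all libraries (0.00645% of 15497 genes were called) or without siNC replicate 3 (0.57% of 15798). DESeq2's Wald test (1.08% of genes called) and limma voom with sample quality weights (3.94% called) also called 0 of the 44. At an unadjusted p under 0.05, 1 of the 44 was lower, Tfeb, against 2.92% of all tested genes. The groups did not overlap in 9 genes that were higher in libraries labelled siJmjd4 (20.5% of 44, against 22.4% of all tested genes) and 14 that were lower (31.8%, against 17.8%). The median log2 fold change of the 44 genes was -0.08, beside 0.01 over all genes, and -0.05 without siNC replicate 3.

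**Figure D5:**
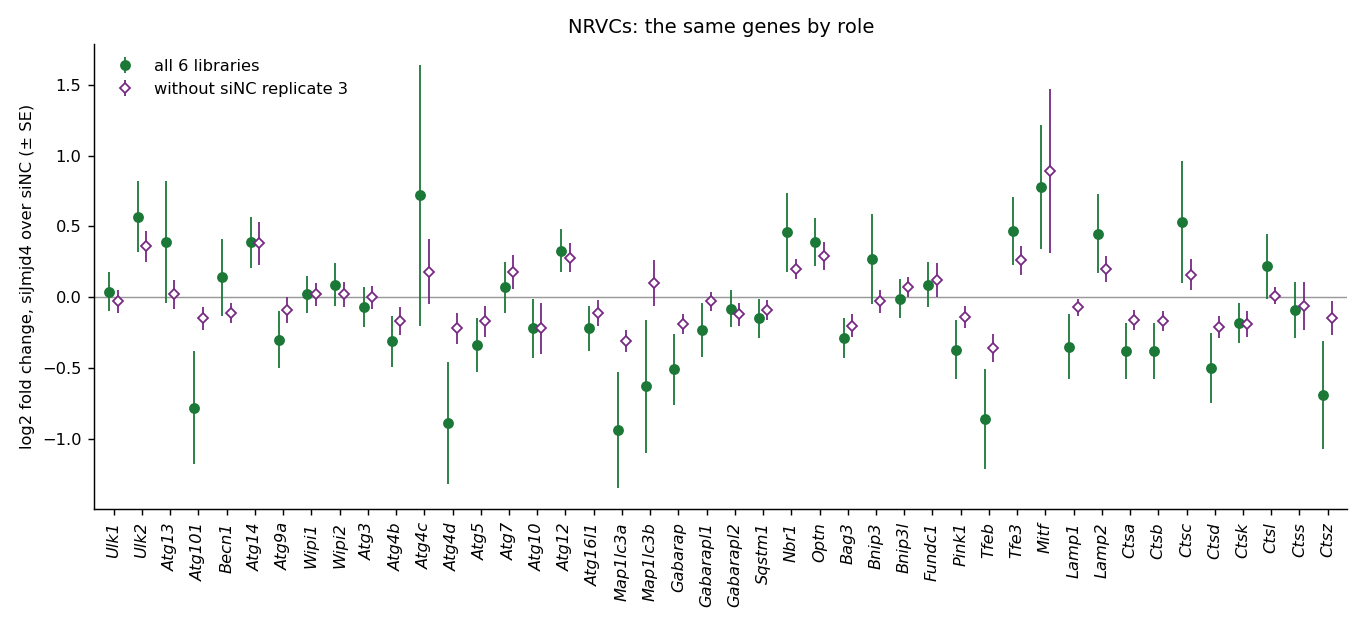
Log2 fold change of the 44 genes found in the NRVCs, siJmjd4 over siNC, with its standard error, with all 6 libraries (filled circles) and without siNC replicate 3 (open diamonds), in the order of roles used for the hearts. Most values draw towards 0 without siNC replicate 3, as for Map1lc3a, at -0.94 and then -0.31.

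Tfeb was at 23.1, 24.4 and 21.4 CPM in siJmjd4 replicates 1, 2 and 3, against 28.8, 30.0 and 66.6 CPM in siNC replicates 1, 2 and 3. All siJmjd4 libraries lay below all siNC libraries, and siNC replicate 3 was far above the others. The log2 fold change was -0.86 (SE 0.35, edgeR adjusted p = 0.379). With siNC replicate 3 left out it was -0.36 (SE 0.10, adjusted p = 0.0954). Map1lc3a was at 177, 167 and 156 CPM in siJmjd4 libraries, against 195, 219 and 544 CPM in siNC libraries. Its log2 fold change of -0.94 (adjusted p = 0.379) likewise became -0.31 (adjusted p = 0.0781).

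Genes of early steps had no common direction. Atg101, of the initiation complex, was at 44.3, 44.2 and 40.4 CPM in siJmjd4 replicates 1, 2 and 3, against 46.1, 49.5 and 125 CPM in siNC replicates 1, 2 and 3 (log2 fold change -0.78, edgeR adjusted p = 0.379, and -0.15 with siNC replicate 3 left out), with no overlap. Of the 9 conjugation genes found, 6 had a log2 fold change below 0. Ulk2, an initiating kinase, was at 42.5, 51.2 and 53.2 CPM in siJmjd4 replicates 1, 2 and 3, against 39.4, 36.9 and 22.5 CPM in siNC replicates 1, 2 and 3. With no overlap, its log2 fold change was 0.57 (SE 0.25, edgeR adjusted p = 0.379). With siNC replicate 3 left out it was 0.36 (adjusted p = 0.0973), and with the length correction 0.07. Atg14, which brings the lipid kinase complex to the forming membrane, was at 13.2, 10.6 and 12 CPM in siJmjd4 libraries, against 8.94, 9.34 and 8.99 CPM in siNC libraries (0.39, adjusted p = 0.379, 0.38 without siNC replicate 3 and 0.18 with the length correction). Atg12 was at 28.8, 29.6 and 31.4 CPM in siJmjd4 libraries and 23.9, 25.6 and 21.9 CPM in siNC libraries (0.33, and -0.10 with the length correction).

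Of receptors and mitophagy genes, Optn was at 27.3, 27.4 and 27.5 CPM in siJmjd4 replicates 1, 2 and 3, against 21.4, 23.6 and 17.5 CPM in siNC replicates 1, 2 and 3 (log2 fold change 0.39, edgeR adjusted p = 0.379). Pink1 was at 98.3, 89.8 and 86.5 CPM in siJmjd4 libraries, against 100.0, 101 and 153 CPM in siNC libraries (-0.37, adjusted p = 0.379). Neither pair of groups overlapped, and neither difference was called. Lamp2 was at 137, 145 and 166 CPM in siJmjd4 libraries and 124, 137 and 67.4 CPM in siNC libraries (0.45, adjusted p = 0.386).

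No cathepsin was called in the NRVCs. Of the 8, 6 had a log2 fold change below 0, and the range was -0.69 to 0.53, or -0.21 to 0.16 without siNC replicate 3. Ctsd was at 560, 539 and 507 CPM in siJmjd4 replicates 1, 2 and 3, against 578, 661 and 1041 CPM in siNC replicates 1, 2 and 3 (-0.50, SE 0.25, edgeR adjusted p = 0.379). Ctss was at 7.98, 8.30 and 6.41 CPM in siJmjd4 libraries and 7.52, 8.31 and 8.33 CPM in siNC libraries (-0.09, adjusted p = 0.786), which overlapped. Ctsk was at 62.7, 64.5 and 54.4 CPM in siJmjd4 libraries and 66.8, 71.2 and 67.6 CPM in siNC libraries (-0.18, adjusted p = 0.439). Per kilobase of the mouse transcript, Ctss had the lowest mean level of the 8, at 5.58 CPM per kb in siJmjd4 and 5.94 in siNC libraries.

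These cultures held fibroblast and macrophage transcripts too. Fibroblast markers summed to 51050 to 60640 CPM in siJmjd4 and 42440 to 51840 CPM in siNC libraries, and 11 cardiomyocyte markers to 17140 to 20840 CPM in siJmjd4 and 21310 to 29860 CPM in siNC libraries. The 14 macrophage markers found summed to 510.0 to 548 CPM in siJmjd4 and 503 to 803 CPM in siNC libraries. Of 157 other pathway genes tested, edgeR called 0 with all libraries, 11 were higher and 3 lower at an unadjusted p under 0.05 (5.79% and 2.92% over all genes), and DESeq2's Wald test called 3 higher (0.878% over all genes). Without siNC replicate 3 edgeR called 1, higher, where 0.487% of all genes were. That was Prkaa2, the alpha2 catalytic subunit of AMPK, at 12.2, 17.7 and 20.0 CPM in siJmjd4 libraries and 5.86, 5.99 and 3.38 CPM in siNC libraries (log2 fold change 1.71, edgeR adjusted p = 0.379, and 1.49, adjusted p = 0.0359, in that fit).

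Whether the response to cKO in hearts differed from that to siJmjd4 in NRVCs was tested by fitting the 12 libraries in 1 edgeR model, with genes paired by symbol. Of the 44 genes, 2 were called, where 1.68% of 13482 genes were. The difference of log2 fold changes, hearts minus NRVCs, was 2.52 for Ctss (adjusted p = 0.00771) and 2.04 for Ctsk (adjusted p = 0.0251). The call of Ctss held with any 1 library left out, while that of Ctsk held only without cKO replicate 1, flox replicate 3 or siNC replicate 1 (adjusted p of 0.0596 to 0.103 in the other 9 cases). Without flox replicate 3 and siNC replicate 3, 8 genes were called, where 12.8% of 13647 genes were. Those were Ctss, Ctsk, Ctsz, Ctsl, Ctsa and Ctsb with a positive difference and Mitf and Optn with a negative one, at -2.17 for Mitf. The systems differ in species, age, cell mixture and kind of targeting, which cannot be told apart here.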

How the data were processed

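The deposited files are 2 tables of raw counts by gene symbol, 1 for the hearts and 1 for the NRVCs. The submitters' processing notes name HISAT2 2.1.0, StringTie 1.3.4 and edgeR 3.20.9, along with the builds mm10 and rn6, but give them no role. The sources used here give no counting rule, strand setting or annotation, so reads of genes that overlap on opposite strands may be shared. Columns were matched to samples, and samples to groups, by the labels.

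Genes were filtered with filterByExpr, scaled by TMM and tested in each system on its own 6 libraries with edgeR's quasi-likelihood test (edgeR 4.0.16 with robust dispersion, R 4.3.3), with group as the only term and Benjamini-Hochberg adjustment over all genes tested. CPM uses TMM-scaled library sizes. With 3 against 3 libraries a permutation test cannot go below 0.1, so none was made. The shallowest library held 57174654 counts. Some genes still had few counts in single libraries, such as Atg4c with 9 in siNC replicate 3. How far counting error limits the precision of each gene was not tested.

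Alternatives were DESeq2's size factors and Wald test (1.42.0), scaling to total counts alone, leaving genes unfiltered or keeping those averaging 5 CPM or more, limma voom (3.58.1) with quality weights, the replicate number as a block, leaving out each library, and a correction for transcript length. For that correction, each library was compared gene by gene with the mean of all libraries in the fit, both groups together. The trend of these log2 ratios with transcript length was smoothed (span 0.3) and entered the model as an offset. A length trend that differed between the groups was thus removed as well. Lengths came from the basic protein-coding transcripts in GENCODE M21 (GRCm38, the assembly of mm10). Of tested genes, 80.0% had a length in the mouse and 84.0% in the rat, there taken from mouse by symbol. Added after the data were seen were fits without flox replicate 3 and cKO replicate 2, without flox replicate 3 with the length correction, and with the length of all exons joined. The code was checked on simulated counts.

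The genes, lists and rules were chosen with earlier results of these data known. Values of every library are given for each gene called in the fit with all libraries or without flox replicate 3 or siNC replicate 3, and for the gene with the smallest p in each role. Other genes were described by ranges or by values chosen after they were seen. Promoter letters come from RefSeq (GRCm38.p6), with 40 of 46 genes matched. No replicate pair was identical (chi-square per degree of freedom of 26.6 to 1700).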

Additional observations from a re-analysis of the deposited data

Results flagged for a closer look

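The change of 2 cathepsin genes differed between the systems in a test of the difference itself (edgeR, adjusted over 13482 genes). For Ctss the difference of log2 fold changes, hearts minus NRVCs, was 2.52 (adjusted p = 0.00771). The log2 fold change was 2.43 in hearts, with each of 3 cKO libraries above all flox libraries, and -0.09 in NRVCs, where the groups overlapped. For Ctsk the difference was 2.04 (adjusted p = 0.0251). Its log2 fold change was 1.86 in hearts, with no overlap, and -0.18 in NRVCs, where all siJmjd4 libraries lay below all siNC libraries. The 2 systems share no library, and macrophage markers summed to 1069 to 1474 CPM in cKO and 512 to 1043 CPM in flox hearts, and to 510.0 to 548 CPM in siJmjd4 and 503 to 803 CPM in siNC libraries. The part of those cells in the difference was not tested.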

How the results depend on the processing

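In the hearts the number of genes called turned on the libraries and the test. With all libraries edgeR called 0 higher and 0 lower, where 0.508% of all genes were called. Leaving out 1 library gave 0 to 4 higher and 0 to 1 lower, with calls only without flox replicate 3. That fit called 4 higher and 1 lower, where 4.26% and 2.93% of all genes were called. Without any other 1 library, edgeR called 0 of all tested genes. No filter gave 1 higher (Ctss), where 0.37% of all genes were called higher. DESeq2's Wald test gave 2 higher and 2 lower (5.29% and 4.37% of all genes), and limma voom with quality weights 7 and 4 (12% and 9.34%). The length correction gave 3 higher (Ctsk, Ctss and Ctsz), where 3.08% of all genes were. Another 3 fits were chosen after seeing the data. Without flox replicate 3 and cKO replicate 2 there were 7 higher and 5 lower (9.54% and 9.53% of all genes). Without flox replicate 3 and with the length correction there were 4 and 2 (6.94% and 6.65%). The length of all exons joined gave 3 and 1 (1.85% and 1.51%). In the NRVCs every setting run gave 0 calls among the 44 genes, where 0% to 3.94% of all tested genes were called. The number of genes whose change differed between the systems was 2, where 1.68% of all genes were called. It was 8 without flox replicate 3 and siNC replicate 3 (12.8% of all genes), and ran from 1 to 4 when 1 library was left out. Ctss stayed called without any 1 library. The call of Ctsk was lost without cKO replicate 2 or 3, flox replicate 1 or 2, any 1 of the siJmjd4 replicates, or siNC replicate 2 or 3 (adjusted p of 0.0596 to 0.103).

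Among the genes recomputed under every setting, directions turned for Rab7 in the hearts with total counts alone (0.15), for Ctsl with the length correction (-0.10), for Becn1 with the length of all exons joined (-0.32), and for Atg12 in the NRVCs with both length corrections (-0.10 and -0.04). Others turned too, among them in the hearts Ctsb (-0.20), Gabarap (0.11) and Atg101 (0.24) with the length correction, Atg5 (0.27), Bnip3 (0.43) and Gabarap (0.54) with total counts alone, and Ulk1 (-0.11), Gabarap (0.65) and Bnip3 (0.46) without flox replicate 3. With total counts alone the median over all heart genes was 0.54, so Rab7, Atg5 and Bnip3 stayed below that median. The cause of these turns was not tested.

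The replicate numbers do not pair the samples. Same-numbered libraries had correlations of deviations from the group means of 0.36, -0.48 and -0.33 in the hearts and -0.14, -0.02 and -0.15 in the NRVCs. For cKO replicate 1 the value was 0.36 with flox replicate 2 too, and -0.42 with flox replicate 3. With the replicate block, 0 genes were called in either system, and 0 in the test of the difference, where Ctss had an adjusted p of 0.100 and Ctsk of 0.159.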
